A study of Mus musculus with 7 samples.

Results

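The genes described here carry the Wnt signal from the cell that secretes it to the nucleus of the cell that receives it: Wnt ligands, frizzled receptors, their co-receptors, the enzymes and carriers that ready a ligand for export, and the cytoplasmic and nuclear parts of the beta-catenin route. They were chosen by symbol, as every gene named Wnt or Fzd followed by a digit plus 23 listed genes, of which 22 had a probe set with a single symbol; Tcf7 was not analysed here. That gave 52 genes of 19937 with such a probe set: 19 Wnt genes, 10 frizzled receptor genes, Fzd10os, which lies on the opposite strand at Fzd10 and is no receptor gene, and the 22 listed genes. All 52 matched a RefSeq gene identifier and all 52 passed the filter on low signal. Wnt4 was the only member with more than 1 probe set.

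RNA came from mouse embryonic fibroblasts that had immortalised spontaneously, seeded at 50000 cells per well and cultured for 2 days in medium with serum, with no other treatment. The wild-type group held 3 clones from wild-type mice, the knockout group 2 clones from mice lacking tenascin-C (Tnc), and the knockdown group 2 clones whose wild-type genome carried a stably expressed shRNA directed at Tnc. Each clone was measured on 1 Affymetrix whole-transcript array. No clone carrying a control hairpin is analysed here. The 3 groups are clonal lines, and the labels do not tie the clones to separate mice. All p-values therefore measure the variation among these lines and their arrays, part of which may be technical.

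Values are log2 signals, and a difference of 1 is a doubling of signal. Array medians lay between 5.38 and 5.49, and arrays correlated at 0.979 to 0.990 over probe sets. Tnc, the targeted gene, stood at 10.89, 11.42 and 11.38 in wild type, at 8.05 and 8.51 in knockout and at 7.34 and 6.52 in knockdown. The labels do not say whether the knockout removed the sequence this probe set reads. Of 13 fibroblast markers 11, among them Col1a1, Vim and Thy1, lay above the array median on all 7 arrays. The exceptions were Fap, above it on 1 array, and Lum, above it on 5. Lum read 5.06, 9.26 and 9.13 in wild type, 5.76 and 4.17 in knockout and 6.95 and 5.85 in knockdown. Pecam1, Cdh5, Ptprc, Epcam and Cdh1, which define endothelial, blood and epithelial cells, lay below the array median on every array, as did 5 of 8 endothelial, 6 of 9 macrophage and blood and 5 of 8 epithelial markers in all. Vwf, Cd68, Krt8 and Cldn4 of these lists lay above it on all 7 arrays, and Krt19 on 6, at 8.22 to 8.51 in wild type. Cdh1 read 4.578 on all 7 arrays, a single value that carries no information on the groups. Of the 8 skeletal muscle markers 4 lay below the array median on every array and 2 above it. Of the 7 neural and glial markers 1 lay below the array median on every array and 2 above it. Mean signals over the other lists ran from 4.78 to 4.91 (endothelial, 8 genes), 4.54 to 4.75 (macrophage and blood, 9), 5.06 to 5.63 (epithelial, 8), 5.13 to 5.37 (skeletal muscle, 8) and 5.58 to 5.99 (neural and glial, 7). Mean signal over the fibroblast list ran from 9.75 to 10.72 in wild type, from 10.36 to 10.43 in knockout and from 10.60 to 10.76 in knockdown, and the lowest value was that of wild-type array 1. The X-inactivation RNA Xist read 8.80 on knockout array 2 and 3.51 to 3.77 on the other 6 arrays, and the Y-linked gene Eif2s3y read 3.77 there and 5.46 on knockdown array 2 against 7.51 to 8.78 elsewhere, so clones of a group differed in sex-linked expression. Its part in the results below was not tested beyond leaving those arrays out.

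Wnt proteins are secreted, lipid-modified signals. Porcn attaches the lipid and Wls carries the ligand to the cell surface. In the canonical branch a Wnt bridges a frizzled receptor and Lrp5 or Lrp6, the Dishevelled proteins (Dvl) are recruited, and the destruction complex of Axin, Apc and the kinase Gsk3b stops marking beta-catenin (Ctnnb1) for degradation; beta-catenin then acts with Tcf and Lef factors on target genes. Ror1, Ror2 and Ryk are receptors used mainly outside the beta-catenin route, by ligands such as Wnt5a. Axin2, Nkd1, Nkd2, Rnf43 and Znrf3 restrain the pathway, and in fibroblasts Wnt signals are known for their part in matrix production and tissue repair.

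No member passed the test in any comparison. With limma fitted over all 16801 tested genes and an adjusted p under 0.05 as the threshold, 0 of 52 members were called in knockout against wild type (0.167% of all genes), 0 in knockdown against wild type (0.0179%), 0 for the mean of both deficient groups against wild type (0.0298%) and 0 in knockout against knockdown (0.375%). At an unadjusted p under 0.05 limma gave 9 members in knockout, 8 higher and 1 lower, which is 17.3% of the members against 12.8% of all genes. In knockdown it gave 9 members, 7 higher and 2 lower (17.3% against 14.1%). For the deficient mean it gave 11, of which 10 were higher (21.2% against 12.3%), and between knockout and knockdown 13 (25% against 17.9%). No alternative by another tool was run. Both deficient groups were compared with the same 3 wild-type arrays, so the comparisons with wild type are not independent of each other.

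Against wild type, more members were higher than lower without overlap of the arrays. All knockout arrays lay above all wild-type arrays for 13 members (25%, against 13.2% of all genes) and below them for 3 (5.77% against 15.3%). Without knockout array 2 the former count was 20, beside 25.4% of all genes. All knockdown arrays lay above wild type for 20 members (38.5% against 17.5%) and below for 3 (5.77% against 12.9%). All 4 deficient arrays lay above all wild-type arrays for 8 members (15.4% against 4.15%), namely Fzd2, Fzd7, Fzd8, Lrp5, Porcn, Wls, Wnt1 and Wnt3, and below for 0 (3.55% of all genes). Knockout lay above knockdown for 7 members (13.5% against 17.8%) and below for 19 (36.5% against 27.2%). For the latter count the share of all genes differed with signal and that of the members hardly did. Among genes below the median mean signal it was 36.7% of members against 34.7% of all genes. Among genes above that median it was 36.4% against 19.8%. The median log2 change over the 52 members was 0.03 in knockout and 0.17 in knockdown, beside -0.03 and 0.03 over all tested genes. Without wild-type array 1 the knockdown median was 0.083. The knockout median was 0.005 and 0.072 on leaving out knockout arrays 1 and 2 in turn, and 0.015 and 0.065 on leaving out wild-type arrays 1 and 3.

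**Figure D1:**
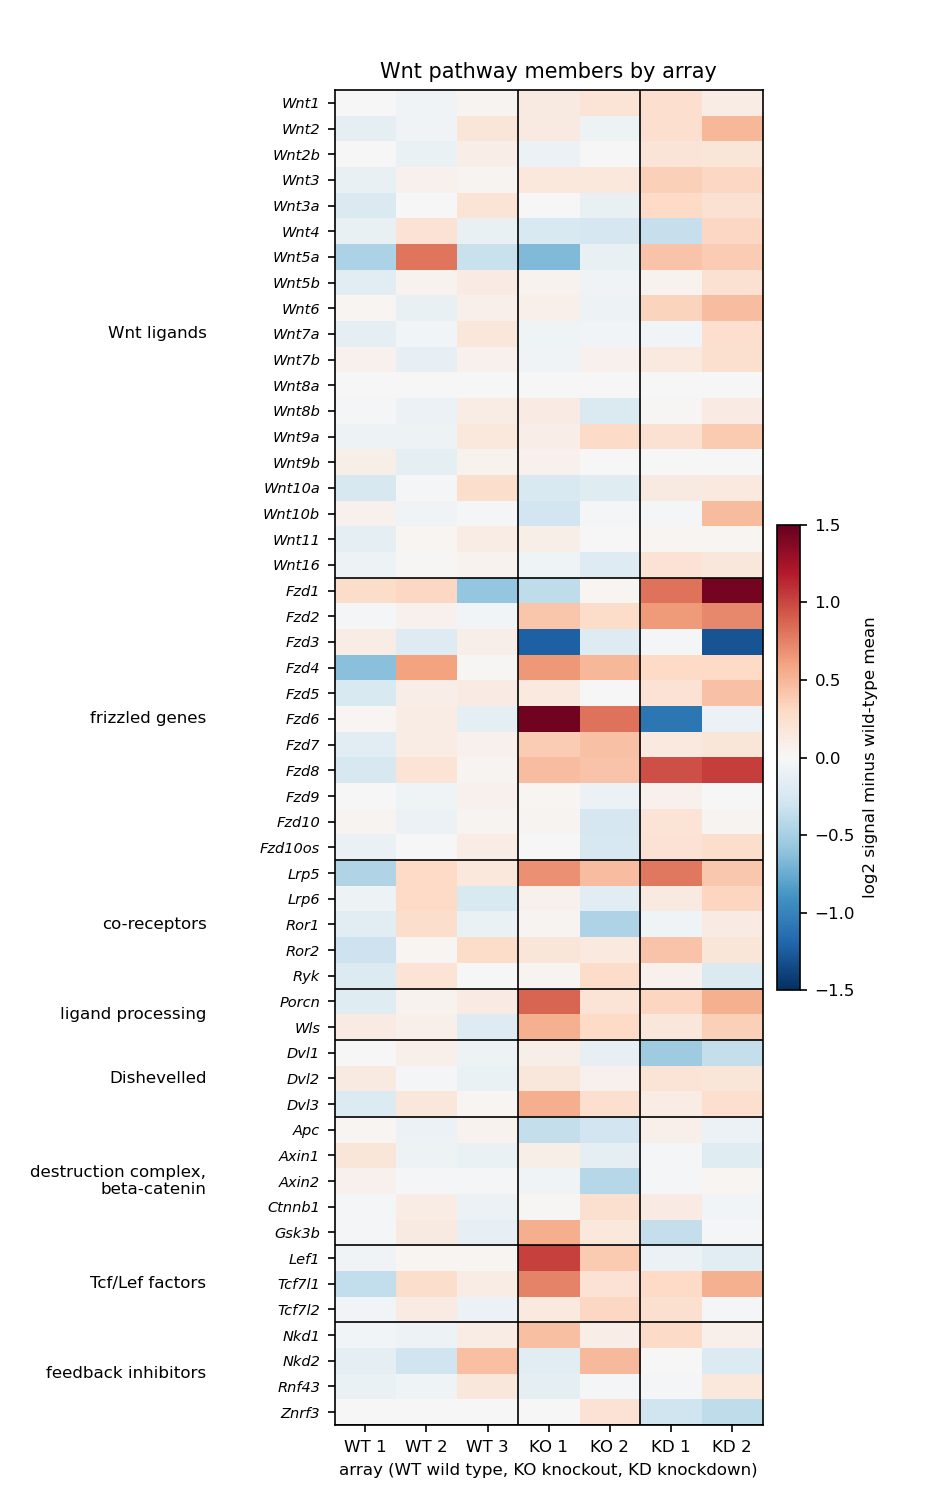
Log2 signal of each of the 52 members (rows, grouped by role) on each of the 7 arrays (columns), minus the gene's wild-type mean; red is above it and blue below. Fzd2, Fzd8, Lrp5, Porcn and Wls are red on all 4 deficient arrays. Fzd6 is red in knockout and blue on knockdown array 1, while knockdown array 2 is near its wild-type mean.

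Among the receptors, Fzd2 and Fzd8 gave the smallest p-values of all members in knockdown and for the deficient mean. In bulk RNA, a change in the share of expressing cells and a change in RNA per cell cannot be told apart. Fzd2 (probe set 10381603, gene identifier 57265), a receptor of both the beta-catenin and the Wnt5a branch, read 7.93, 8.02 and 7.92 in wild type, 8.38 and 8.23 in knockout and 8.60 and 8.68 in knockdown. The 3 groups did not overlap, with knockout between wild type and knockdown, and the spread within each group was small. Its log2 change against wild type was 0.35 ± 0.08 (SE, n = 2 against 3) in knockout (limma adjusted p = 0.182). In knockdown it was 0.68 ± 0.08, or 1.60-fold (adjusted p = 0.100). For the deficient mean it was 0.51 ± 0.07 (adjusted p = 0.134), and the gap of knockout to knockdown was -0.33 ± 0.09 (adjusted p = 0.161).

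Fzd8, whose product binds several canonical ligands, had the same order of groups. Its log2 signal was 7.42, 7.87 and 7.70 in wild type, 8.13 and 8.09 in knockout and 8.63 and 8.71 in knockdown, again without overlap. It was 2.01-fold higher in knockdown (log2 1.01 ± 0.14, adjusted p = 0.110) and 1.36-fold higher in knockout (0.45 ± 0.14, adjusted p = 0.269), neither past the threshold. Over the 17 alternative settings the knockdown difference of Fzd8 stayed between 0.89 and 1.11 and that of Fzd2 between 0.64 and 0.72, and none of them called either gene.

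Fzd7, a close relative of Fzd1 and Fzd2, was also higher on every deficient array, by less. Wild-type arrays read 8.92, 9.21 and 9.16, knockout arrays 9.48 and 9.53, and knockdown arrays 9.24 and 9.27, just above the highest wild-type value. The log2 change was 0.41 ± 0.10 in knockout (adjusted p = 0.202), and the knockdown value was 0.16 ± 0.10 (adjusted p = 0.546), or 0.07 without wild-type array 1. Fzd1 read 9.16, 9.21 and 8.31 in wild type, 8.51 and 8.93 in knockout and 9.71 and 10.33 in knockdown. Its log2 change was 1.12 ± 0.34 in knockdown (2.18-fold, adjusted p = 0.240) and -0.18 ± 0.34 in knockout (adjusted p = 0.852), and the difference between those groups was -1.30 ± 0.37 (adjusted p = 0.172). Wild-type array 3 was the low one; without it the knockdown difference was 0.83.

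The start regions of Fzd7 and Fzd1 are shown because these relatives had different values in the 2 deficient groups and both have a window in the RefSeq promoter table (GRCm38.p6); each window runs from 250 bases before to 50 after the annotated start. Capitals mark the GC box letters GGGCGG, searched on both strands with overlaps counted. Fzd7 lies at chr1:59481897-59482196 on the plus strand and Fzd1 at chr5:4758167-4758466 on the minus strand.
Fzd7: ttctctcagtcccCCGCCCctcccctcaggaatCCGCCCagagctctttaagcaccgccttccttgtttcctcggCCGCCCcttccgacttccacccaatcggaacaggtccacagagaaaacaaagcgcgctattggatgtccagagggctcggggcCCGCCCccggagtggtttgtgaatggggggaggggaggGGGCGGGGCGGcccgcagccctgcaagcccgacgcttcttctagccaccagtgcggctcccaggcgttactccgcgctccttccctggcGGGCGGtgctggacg
Fzd1: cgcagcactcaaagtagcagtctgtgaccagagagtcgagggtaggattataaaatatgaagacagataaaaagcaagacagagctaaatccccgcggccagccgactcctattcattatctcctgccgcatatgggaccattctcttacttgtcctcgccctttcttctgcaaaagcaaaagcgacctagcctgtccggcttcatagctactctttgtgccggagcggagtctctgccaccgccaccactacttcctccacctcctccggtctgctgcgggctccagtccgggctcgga
The Fzd7 window holds 7 GC boxes and 2 copies of CCAAT, and the Fzd1 window holds 0 of either and 1 TATAAA at position -202 from the start. GC boxes occur in 35.7% of the 32851 windows in the table and in 34 of the 46 windows that belong to 37 of the members (73.9%). The Tcf/Lef letters CTTTGAA or CTTTGAT, on either strand, are in neither window; 8.65% of all windows hold them, and 2 of the 46 member windows do, those of Wnt11 and Wnt5b.

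Fzd6, which is known to act in planar cell polarity and to restrain the beta-catenin branch, had opposite signs in the 2 deficient groups. It read 7.34, 7.41 and 7.16 in wild type, 8.75 and 8.12 in knockout and 6.22 and 7.21 in knockdown. Knockout lay above all other arrays, while knockdown overlapped wild type on array 2. The log2 change was 1.13 ± 0.32 in knockout (2.19-fold, adjusted p = 0.239) and -0.59 ± 0.32 in knockdown (adjusted p = 0.478), and the 3.30-fold gap between them, 1.72 ± 0.35, did not pass either (adjusted p = 0.109). Without knockdown array 1 the knockdown difference was -0.09.

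The remaining receptor genes overlapped more. Fzd3, a receptor of axon guidance and polarity, read 6.00, 5.70 and 5.98 in wild type but 4.67 and 5.70 in knockout and 5.88 and 4.60 in knockdown, so that 1 array of each deficient group was low and the other stayed in the wild-type range. Its differences were -0.71 ± 0.44 in knockout and -0.65 ± 0.44 in knockdown (adjusted p = 0.542 and 0.566); without the low array of each group they were -0.20 and -0.02. Fzd4, the receptor of the vascular ligand Norrin, ranged from 5.54 to 6.76 within wild type. That range held both knockdown arrays at 6.46 and 1 of the knockout arrays, at 6.81 and 6.66 (log2 change in knockout 0.57 ± 0.33, adjusted p = 0.518, or 0.26 without wild-type array 1). Fzd5 was 0.33 ± 0.14 higher in knockdown (adjusted p = 0.374), with arrays at 6.71 and 6.93 against 6.26 to 6.61 in wild type. Fzd9 lay between 5.90 and 6.05 on all 7 arrays, and Fzd10 and Fzd10os lay below the array median on all of them. Over the 10 receptor genes the median log2 change was 0.21 in knockout, with 6 higher and 4 lower, and 0.23 in knockdown, with 8 higher and 2 lower. Of all tested genes 7160 were higher and 9556 lower in knockout, and 9537 and 7175 in knockdown.

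**Figure D2:**
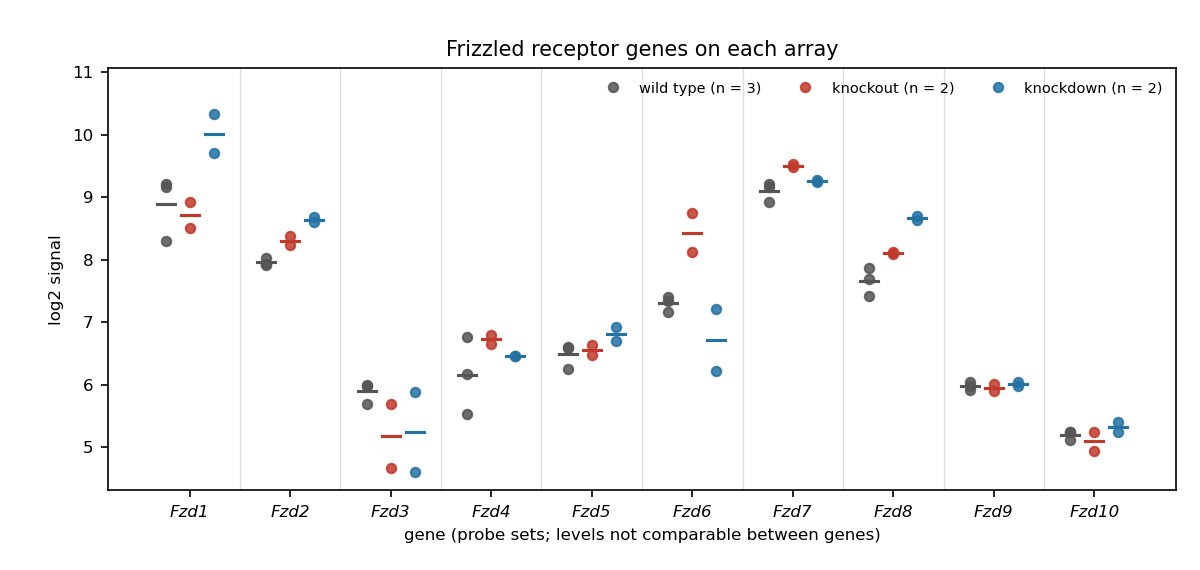
Log2 signal of the 10 frizzled receptor genes on each array (points) with the group mean (bars) for 3 wild-type, 2 knockout and 2 knockdown clones. For Fzd2 and Fzd8 the groups are separate and in the order wild type, knockout, knockdown; Fzd6 is highest in knockout and Fzd1 in knockdown.

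Of the co-receptors, Lrp5 lay above wild type on all 4 deficient arrays and its partner Lrp6 did not. Lrp5 read 7.18, 7.93 and 7.79 in wild type, 8.32 and 8.10 in knockout and 8.43 and 8.04 in knockdown. The log2 change was 0.57 ± 0.25 in knockout (1.49-fold, adjusted p = 0.411) and 0.60 ± 0.25 in knockdown (1.52-fold, adjusted p = 0.358). Wild-type array 1 was low, and without it the differences were 0.35 and 0.37. Lrp6 read 8.75, 9.13 and 8.60 in wild type, 8.89 and 8.67 in knockout and 8.97 and 9.15 in knockdown, so both deficient groups overlapped wild type. Ror1, Ror2 and Ryk, which bind Wnt5a among other ligands, also overlapped with wild type in both groups, with log2 changes from -0.21 to 0.17 in knockout and from -0.07 to 0.31 in knockdown.

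Both genes of ligand export lay above wild type on all 4 deficient arrays. Porcn, the acyltransferase that lipidates Wnts, read 6.00, 6.23 and 6.29 in wild type, 7.05 and 6.37 in knockout and 6.49 and 6.70 in knockdown. Its log2 change was 0.54 ± 0.21 in knockout and 0.43 ± 0.21 in knockdown (adjusted p = 0.376 and 0.437), and without knockout array 1 the knockout difference was 0.20. Porcn lies on the X chromosome, and the knockout array with high Xist was the lower of the pair. Wls, the membrane carrier of lipidated Wnts, read 9.89, 9.85 and 9.57 in wild type, 10.30 and 10.07 in knockout and 9.94 and 10.13 in knockdown. The log2 change was 0.41 ± 0.14 in knockout and 0.27 ± 0.14 in knockdown (adjusted p = 0.302 and 0.450). The Wls window (chr3:159839400-159839699, plus strand, RefSeq, GRCm38.p6) is shown for comparison with that of Fzd7, since all 4 deficient arrays lay above wild type for both genes. It holds 1 GC box, in capitals, and no Tcf/Lef letters.
Wls: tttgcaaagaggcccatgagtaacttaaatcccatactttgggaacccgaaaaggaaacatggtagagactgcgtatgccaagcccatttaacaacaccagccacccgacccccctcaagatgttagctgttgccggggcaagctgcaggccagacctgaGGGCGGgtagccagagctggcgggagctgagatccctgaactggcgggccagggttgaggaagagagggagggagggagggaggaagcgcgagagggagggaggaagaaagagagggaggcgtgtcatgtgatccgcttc

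Of the 19 Wnt ligand genes, 7 lay below the array median on all 7 arrays, 8 above it on all and 4 on both sides. Wnt5a, the main ligand of the branches that do not use beta-catenin, varied more within wild type than between groups. It read 8.45, 9.72 and 8.59 in wild type, 8.25 and 8.81 in knockout and 9.35 and 9.30 in knockdown. Both deficient groups overlapped the wild-type range, with log2 changes of -0.39 ± 0.40 in knockout and 0.41 ± 0.40 in knockdown (adjusted p = 0.700 and 0.694). Knockdown lay above knockout, with knockout minus knockdown at -0.80 ± 0.44 (adjusted p = 0.387). Without wild-type array 2 the Wnt5a differences from wild type were 0.01 in knockout and 0.81 in knockdown.

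In knockdown 17 of the 19 ligand genes were higher than wild type, 1 was lower and 1 did not differ, with a median log2 change of 0.19 and a range from -0.02 to 0.41. In knockout 8 were higher and 10 lower, with a median of 0.00. The knockdown values were small and lay mostly in a signal range where the median of all genes had the same sign: the 8400 tested genes with the lower mean signal had a median of 0.05 in knockdown and -0.05 in knockout. Its part in the ligand values was not tested. The 25th percentile of an array ran from 3.98 to 4.05 and was lowest on the 2 knockout arrays. With quantile normalization the ligand median in knockdown was 0.17, with 16 higher and 3 lower, and with each array centred on its median it was 0.16, with 15 higher and 4 lower. This median was chosen after values were seen.

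Wnt6, a ligand of epithelial and mesenchymal development, read 6.16, 6.02 and 6.21 in wild type, 6.21 and 6.06 in knockout and 6.46 and 6.60 in knockdown. Only the knockdown arrays lay outside the wild-type range (log2 change 0.40 ± 0.10, adjusted p = 0.192), and knockout minus knockdown was -0.40 ± 0.11 (adjusted p = 0.159). Wnt3, a canonical ligand of early development, read 4.68, 4.86 and 4.84 in wild type, 4.94 and 4.94 in knockout and 5.15 and 5.11 in knockdown (log2 change in knockdown 0.34 ± 0.08, adjusted p = 0.192). All these values lay below the array medians, and so did those of Wnt1, the other ligand higher on all 4 deficient arrays (4.80 to 4.94 against 4.63 to 4.73, log2 change for the deficient mean 0.18 ± 0.07, adjusted p = 0.375). Wnt2 and Wnt9a stood 0.38 ± 0.14 and 0.31 ± 0.12 above wild type in knockdown (adjusted p = 0.306 and 0.323). Wnt8a read 5.32 on every array to all deposited digits, as 68 other probe sets of 34760 held a single value each, and carries no information on the groups. These ligands, other than Wnt5a, were named after their values were seen.

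**Figure D3:**
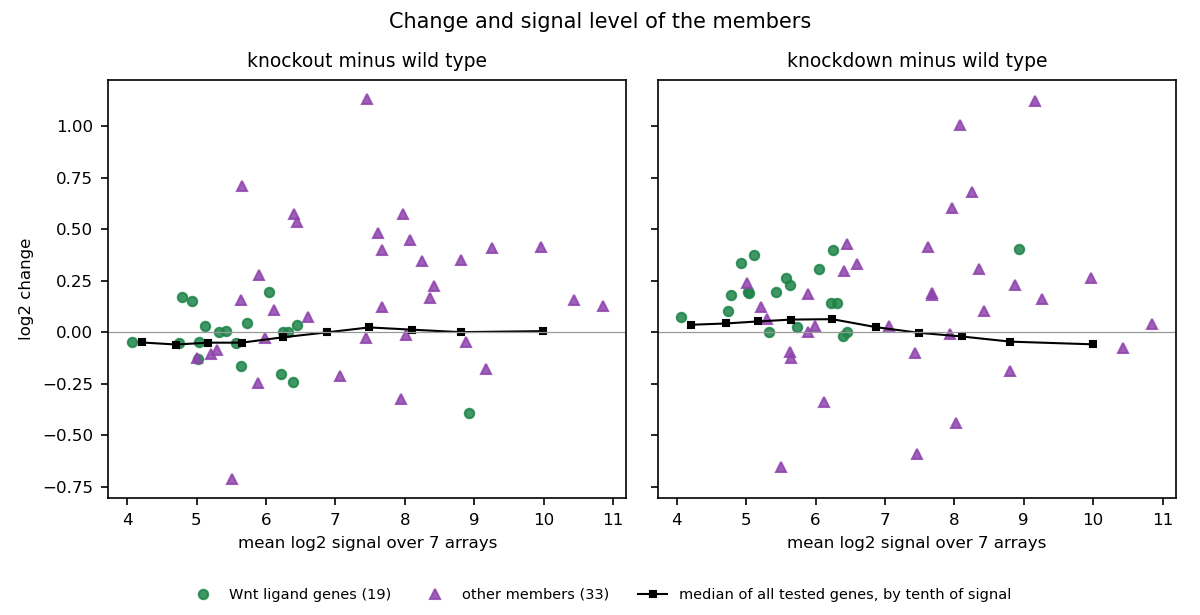
Log2 change of each member (y axis) against its mean log2 signal over the 7 arrays (x axis), in knockout (left) and knockdown (right), with the median change of all tested genes in 10 equal groups by signal (black line). In knockdown most ligand genes lie above the black line, which itself runs from 0.04 in the dimmest group to -0.06 in the brightest.

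The cytoplasmic members showed small and scattered differences. Beta-catenin itself (Ctnnb1) read 10.78, 10.92 and 10.72 in wild type, 10.83 and 11.04 in knockout and 10.93 and 10.76 in knockdown. Its log2 change was 0.13 in knockout, with a 95% confidence interval of -0.14 to 0.39, and 0.04 in knockdown, with an interval of -0.22 to 0.31 (adjusted p = 0.636 and 0.899). The arrays measure the transcript and not beta-catenin protein, whose stability the pathway controls.

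Apc, the scaffold of the destruction complex, read its lowest values in knockout: it read 8.06, 7.95 and 8.09 in wild type, 7.67 and 7.75 in knockout and 8.11 and 7.95 in knockdown (log2 change in knockout -0.32 ± 0.09, adjusted p = 0.218; knockout minus knockdown -0.32 ± 0.10, adjusted p = 0.183). Gsk3b, the kinase of the complex, read 8.74, 8.90 and 8.63 in wild type, 9.30 and 8.92 in knockout and 8.40 and 8.74 in knockdown. Its log2 change was 0.35 ± 0.16 in knockout and -0.19 ± 0.16 in knockdown (adjusted p = 0.438 and 0.648), and without knockout array 1 the former was 0.16. Axin1 overlapped with wild type in both groups. Dvl1, the first of the Dishevelled genes, read 8.15, 8.22 and 8.07 in wild type, 8.24 and 8.03 in knockout and 7.62 and 7.80 in knockdown, where the log2 change was -0.44 ± 0.10 (adjusted p = 0.188). Dvl3 instead was 0.40 ± 0.14 higher in knockout (adjusted p = 0.344), with arrays at 8.05 and 7.76 against 7.31 to 7.68, and Dvl2 lay between 7.48 and 7.79 on all arrays.

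Lef1, a nuclear partner of beta-catenin and itself a target of the pathway, read 5.43, 5.51 and 5.51 in wild type, 6.51 and 5.88 in knockout and 5.39 and 5.33 in knockdown, values near the array medians. The log2 change was 0.71 ± 0.18 in knockout (1.64-fold, adjusted p = 0.202) and -0.12 ± 0.18 in knockdown (adjusted p = 0.803), and knockout minus knockdown was 0.83 ± 0.20 (adjusted p = 0.137). Without knockout array 2 the difference from wild type was 1.03 and from knockdown 1.15, and both then passed (adjusted p = 0.0331 and 0.0244), resting on knockout array 1 with its spread assumed equal to that of the other groups. Without knockout array 1 they were 0.40 and 0.52 (adjusted p = 0.171 and 0.122). Over the 17 alternatives the adjusted p ran from 0.0331 to 0.433 against wild type and from 0.0244 to 0.361 against knockdown. Tcf7l1, mainly a repressor, was 0.48 ± 0.24 higher in knockout and 0.42 ± 0.24 in knockdown (adjusted p = 0.467 and 0.495), and wild-type array 1, at 6.99 against 7.63 and 7.47, was its lowest. Without that array the Tcf7l1 values were 0.30 and 0.23, and without knockout array 1 the knockout value was 0.22. Tcf7l2 read 8.25 to 8.46 in wild type and 8.48 and 8.64 in knockout (log2 change 0.22 ± 0.12, adjusted p = 0.485).

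Axin2, the usual transcriptional readout of beta-catenin activity, read 6.02, 5.93 and 5.93 in wild type, 5.91 and 5.53 in knockout and 5.93 and 5.99 in knockdown. Knockout lay just below wild type (log2 change -0.24 ± 0.12, adjusted p = 0.470), and without knockout array 2 the difference was -0.05. Znrf3, a ubiquitin ligase that removes frizzled receptors from the surface, read 6.18, 6.19 and 6.18 in wild type, 6.18 and 6.41 in knockout and 5.89 and 5.80 in knockdown. Its change in knockdown was -0.34 ± 0.09 (adjusted p = 0.206), and knockout minus knockdown was 0.45 ± 0.10 (adjusted p = 0.118). Its relative Rnf43 and the Dishevelled antagonists Nkd1 and Nkd2 overlapped with wild type in both groups, with log2 changes from -0.09 to 0.28 in knockout and from -0.10 to 0.19 in knockdown.

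**Figure D4:**
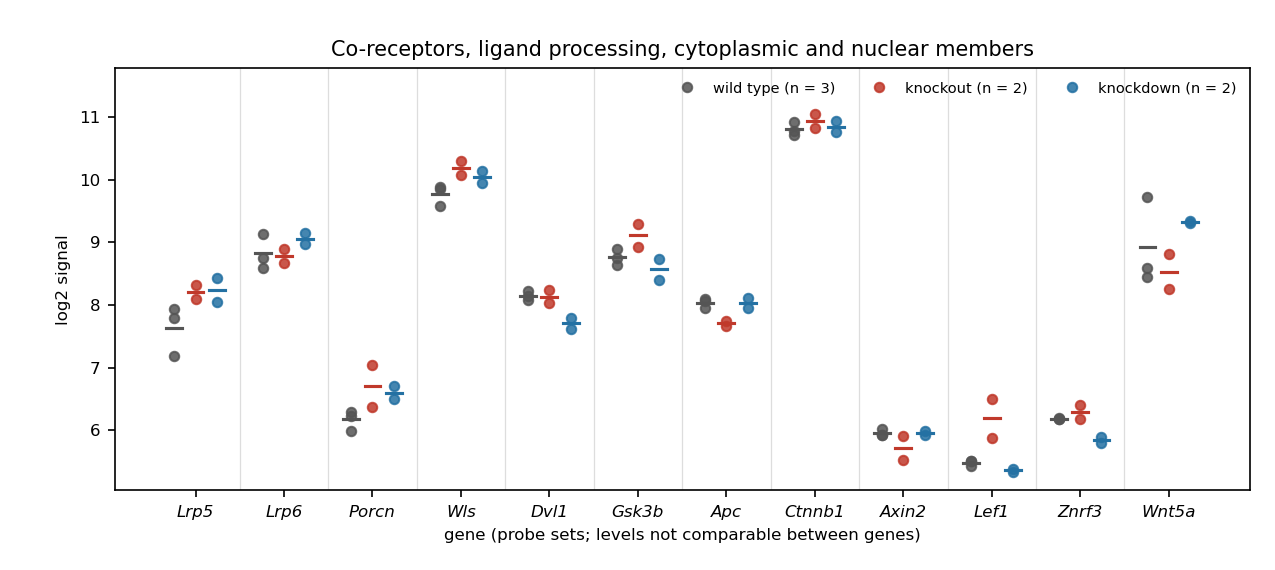
Log2 signal of 12 other members on each array (points) with group means (bars): co-receptors, ligand export, cytoplasmic and nuclear members, Znrf3 and Wnt5a. Lrp5, Porcn and Wls lie above wild type in both deficient groups, Apc is lowest and Lef1 highest in knockout, and Dvl1 and Znrf3 are lowest in knockdown.

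Fzd1, Fzd6, Lef1, Gsk3b, Dvl1, Apc and Znrf3 were among the members that had opposite signs in the deficient groups or left the wild-type range in a single group. Other members did so too, such as Wnt5a, Axin2, Dvl3 and Wnt6. The share of all genes that did so is not given here, so the trait is not particular to the genes named. The smallest adjusted p for a difference between knockout and knockdown among all members was that of Fzd6, 0.109, followed by Znrf3 at 0.118 and Lef1 at 0.137, so none of the members was shown to differ between the deficient groups. The intervals shown for single genes are not adjusted for the number of genes, so an interval that leaves out 0 is no call.

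**Figure D5:**
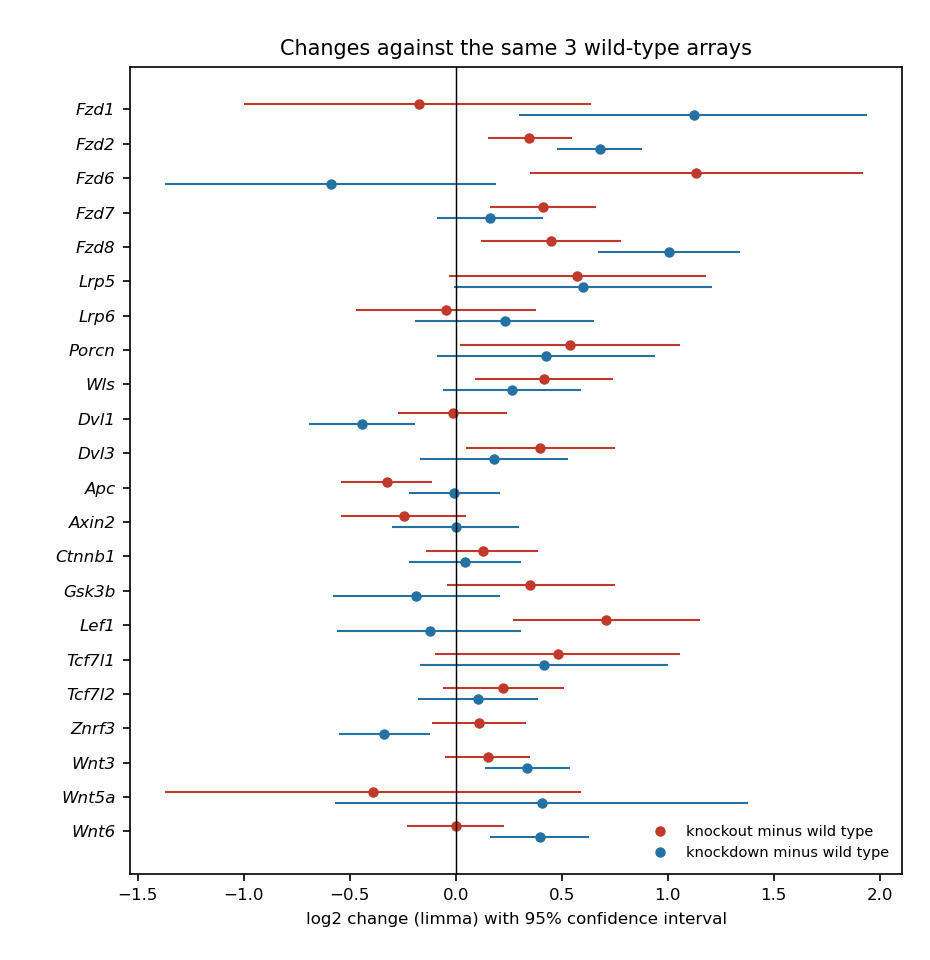
Log2 change (points, limma) and its 95% confidence interval (lines) for 22 members in knockout (red) and knockdown (blue), each against the same 3 wild-type arrays, with intervals not adjusted for the number of genes. The whole interval lies right of 0 for Fzd2 and Fzd8 in both comparisons, for Fzd6, Fzd7, Lef1, Wls, Dvl3 and Porcn in knockout only, and for Fzd1, Wnt3 and Wnt6 in knockdown only. It lies left of 0 for Apc in knockout and for Dvl1 and Znrf3 in knockdown.

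The wider pathway gave few calls. Of 18 secreted inhibitors and their co-receptors, limma called 0 against wild type, with 2 in knockout and 3 in knockdown at an unadjusted p under 0.05, a threshold that 12.8% and 14.1% of all tested genes passed. The median log2 change was -0.06 in knockout and 0.11 in knockdown. Dkk2, a secreted ligand of Lrp5 and Lrp6, had the smallest p of this list, at -1.02 ± 0.13 in knockout and -1.23 ± 0.13 in knockdown (adjusted p = 0.0668 and 0.0928). It read 6.63, 6.45 and 6.43 in wild type and 5.25 to 5.67 on the 4 deficient arrays. With a stricter filter or a trended prior the knockout difference of Dkk2 passed (adjusted p = 0.0428 and 0.0441). For the deficient mean Dkk2 stood at -1.12 ± 0.11 (adjusted p = 0.0876), and it passed with array weights, the stricter filter or the trended prior (adjusted p = 0.0453, 0.0433 and 0.0336). Sfrp2 stood at -1.96 ± 0.74 in knockout (adjusted p = 0.363), or -0.98 without knockout array 1, and Kremen1 at 0.31 ± 0.10 in knockdown (adjusted p = 0.275).

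Of 12 R-spondin, Lgr and glypican genes, which tune receptor number and ligand retention, limma called 0, with 3 in knockout and 0 in knockdown at an unadjusted p under 0.05 (12.8% and 14.1% of all genes). Their median was 0.05 in knockout and 0.30 in knockdown, where 11 were higher and 1 lower, beside 9537 higher and 7175 lower of all 16801 tested genes. Gpc3 stood at -3.97 ± 1.22 and Gpc1 at 1.06 ± 0.36 in knockout (adjusted p = 0.276 and 0.324), and Gpc6 at 0.24 ± 0.12 and Lgr4 at 0.94 ± 0.50 in knockdown (adjusted p = 0.447 and 0.466). Gpc3 read 8.73, 10.04 and 9.37 in wild type, 5.41 and 5.42 in knockout and 5.71 and 10.16 in knockdown. The spread of the knockdown arrays enters its SE in knockout too. Gpc1 in knockout was 0.46 without knockout array 2 and 1.66 without knockout array 1, and Lgr4 in knockdown was 1.44 without wild-type array 2. Of 35 further destruction complex and cofactor genes and 35 genes of the polarity and calcium branches, 0 were called against wild type, with medians from -0.01 to 0.06. At an unadjusted p under 0.05 limma gave 10 and 6 of them in knockout (12.8% of all genes) and 12 and 4 in knockdown (14.1%). In the former list Csnk1g1, which encodes a membrane-bound casein kinase, stood at 0.31 ± 0.07 in knockout and -0.47 ± 0.07 in knockdown (adjusted p = 0.179 and 0.123), Csnk1g3 at -0.50 ± 0.15 in knockout (adjusted p = 0.252) and Hbp1, a Tcf inhibitor, at 0.50 ± 0.10 in knockdown (adjusted p = 0.162). In the latter list the phospholipase gene Plcb1 stood at 1.84 ± 0.38 and Nfatc1 at 0.36 ± 0.08 in knockout (adjusted p = 0.140 and 0.178). The polarity gene Vangl1 stood at 0.49 ± 0.11 and the kinase gene Map3k7 at -0.60 ± 0.14 in knockdown (adjusted p = 0.165 and 0.188).

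Of 46 tested genes widely used as readouts of Tcf/Lef transcription, 0 were called against wild type. At an unadjusted p under 0.05 limma gave 13 in knockout, 10 higher and 3 lower, and 9 in knockdown, all lower. Over all tested genes it gave 12.8% in knockout, 1232 higher and 924 lower, and 14.1% in knockdown, 1197 higher and 1174 lower. In knockout 26 were higher and 20 lower with a median of 0.04, and in knockdown 26 were higher and 20 lower with a median of 0.02. The 2 of smallest p in knockout were Snai2, a mesenchymal transcription factor gene, at 0.67 ± 0.09 (9.85 and 9.79 against 9.06 to 9.21, adjusted p = 0.0686), and Ccn4, also called Wisp1, at 1.42 ± 0.23 (9.98 and 9.43 against 8.02 to 8.62, adjusted p = 0.0970). In knockdown they were Plaur, the urokinase receptor gene, at -0.84 ± 0.09 (adjusted p = 0.0928), and Jun at -0.72 ± 0.11 (adjusted p = 0.117). Between knockout and knockdown 1 member of this list, Gja1, and 1 of the cofactor list, Csnk1g1, passed, at 1.88 ± 0.23 (adjusted p = 0.0495) and 0.78 ± 0.08 (adjusted p = 0.0381). In that comparison 0.375% of all tested genes passed, and 0 genes of the inhibitor, R-spondin and polarity lists did. Leaving out any 1 of the 7 arrays ended both calls, as did array weights, fitting the compared groups alone and the replicate block. Many of these readouts respond to other pathways too, and Lgr5, Dkk1, Notum and Apcdd1 are on more than 1 list.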

How the data were processed

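The authors deposited 1 table of log2 signals, with 34760 probe sets and a column for each of the 7 arrays, all used. Per the submitters' processing notes it was made with the affy package in R 2.8.0; how signals were summarised, background-corrected and normalized was not given in the sources used here. Values from 1.81 to 13.68 put the columns on a log2 scale. Genes were taken from GEO's platform annotation: 21640 probe sets had a single symbol, 1321 had several and 11799 were not listed. The probe set with the highest mean was kept for each gene, and the 16801 genes that exceeded an array's 25th percentile on 2 or more arrays entered the tests.

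A mean for each group was fitted to the 7 arrays together, using limma 3.58.1 under R 4.3.3. Moderated two-sided tests had 4 residual and 2.06 prior degrees of freedom, with Benjamini-Hochberg adjustment over all tested genes. The script was tested on simulated data. Array number, not a count of reads, limits the precision. Members and lists were chosen with earlier results of these data known. Full array values are given for members without overlap and with a log2 change of at least 0.5, and for Ctnnb1, Lrp6, Axin2, Lef1 and Wnt5a; array values of other members (Fzd3, Fzd4, Fzd5, Fzd7, Wls, Dvl1, Dvl3, Apc, Znrf3, Wnt1, Wnt3, Wnt6, Tcf7l1 and Tcf7l2 among them) were chosen after values were seen. Of each pathway list the called genes or the 2 of smallest p in each comparison with wild type are named. Alternatives were other filters, probe set averaging, quantile normalization, median centring, array weights, a trended prior, fits on the compared groups, the replicate block and leaving arrays out.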

Additional observations from a re-analysis of the deposited data

Results flagged for a closer look

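The knockout and knockdown effects differed for 2 genes of the wider pathway, by limma's test of the difference itself, which 0.375% of all tested genes passed. Csnk1g1 read 7.11, 7.11 and 7.12 in wild type, 7.44 and 7.40 in knockout and 6.71 and 6.58 in knockdown, a knockout minus knockdown difference of 0.78 ± 0.08 (SE, adjusted p = 0.0381). Wild-type arrays 1 and 2 held the same value for Csnk1g1, 7.1063, and the part of this tie in its SE was not tested. Gja1, the gene of the gap junction protein connexin 43, read 9.32, 9.01 and 9.12 in wild type, 9.35 and 9.80 in knockout and 7.41 and 7.97 in knockdown, a difference of 1.88 ± 0.23 (adjusted p = 0.0495). Leaving out any single array ended both calls, with adjusted p from 0.0544 to 0.160 for Csnk1g1 and from 0.0919 to 0.160 for Gja1; the differences then lay between 0.713 and 0.844 and between 1.607 and 2.162. Array weights, the compared groups alone and the replicate block also ended the calls, with adjusted p of 0.0682, 0.307 and 0.177 for Csnk1g1 and 0.0821, 0.312 and 0.186 for Gja1. So did leaving out both deficient arrays numbered 2 (0.128 and 0.134), and for Gja1 averaging of probe sets (0.0504) and no filter (0.0568).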

How the results depend on the processing

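Over 17 alternatives no member passed in knockdown or for the deficient mean, and 1, Lef1, passed in knockout and against knockdown in a single setting, without knockout array 2 (0 to 1 over single left-out arrays). Directions reversed for 3 differences, none of them past the threshold: Ctnnb1 in knockdown was -0.008 with array weights and -0.001 with the replicate block (-0.041 to 0.126 over single left-out arrays), and over single left-out arrays Fzd1 in knockout ran from -0.468 to 0.035 and Wnt5a in knockout from -0.668 to 0.012 (down to -0.748 with array weights). The number of members above every wild-type array in knockout was 20 without both deficient arrays numbered 2 (25.4% of all genes, against 13.2% with all arrays) and 13 to 20 over single left-out arrays (13.2% to 25.4%).

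The median over members in knockout was 0.078 with median centring and 0.109 with the stricter filter, and ran from 0.005 to 0.072 over single left-out arrays. In knockdown it was 0.116 with array weights and ran from 0.083 to 0.191 over single left-out arrays, and for the deficient mean from 0.069 to 0.142. Between knockout and knockdown it was -0.042 with median centring, -0.058 with the stricter filter, -0.07 without both arrays numbered 2, and -0.14 to -0.065 over single left-out arrays. The ligand median in knockdown, an alternative set added after seeing the data, lay between 0.15 and 0.228 throughout.

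Counts of all genes called moved more. In knockout (28 as reported, 20 higher and 8 lower) they were 6 with the compared groups alone, 71 with median centring (61 higher, 10 lower), 45 with quantile normalization, 2 with the replicate block, 79 with the stricter filter, 70 with the trended prior, 1 without both arrays numbered 2, and 3 to 71 over single left-out arrays. In knockdown (3) they were 0 with the compared groups alone, with the block, without both arrays numbered 2 and on leaving out any 1 array, while 1617 to 2606 genes had an unadjusted limma p under 0.05 in these fits. For the deficient mean (5) they were 8 with array weights, 10 with the stricter filter, 13 with the trended prior, 0 with the compared groups alone, the block or both arrays numbered 2 left out, and 0 to 5 over single arrays. Between knockout and knockdown (63) they were 18 with array weights, 0 with the compared groups alone, 137 with centring, 38 with no filter, 100 with quantile normalization, 2 with the block, 111 with the stricter filter, 1 without both arrays numbered 2 and 0 to 103 over single arrays. Fewer arrays or residual degrees of freedom enter the left-out and block fits and the compared-group fits of 2 groups. For the deficient mean the compared-group fit kept all 7 arrays and merged the 2 deficient groups into 1. What moved the counts was not tested. Same-numbered arrays of different groups correlated at -0.074 to 0.199 in their deviations from the group means. In a group of 2 arrays the deviations mirror each other, so these values cannot decide whether the numbers pair the arrays.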
